A study of Mus musculus with 6 samples.

Results

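The 2 libraries described here hold the DNA methylome of CD8+ T cells from the LNs of WT mice, out of 6 libraries made by reduced representation bisulfite sequencing (RRBS). They were chosen by genotype, and a CpG was kept when both WT libraries had at least 10 and fewer than 1000 reads on it and it lay on an autosome. This left 949713 CpGs of the 3591066 autosomal CpGs listed in either WT library. The WT mice carried no transgene and had the strain C57BL/6N. The CD8+ T cells were enriched with a magnetic separation kit. The study's text gives the age of the mice as 13 weeks. The other 4 libraries came from cells of the same tissue, strain, and enrichment, 2 from hSTAT5B +/T mice and 2 from hSTAT5B N642H +/T mice, in which the Vav1 promoter drives human STAT5B, unmutated or with the N642H mutation, in blood cells. They are used here only to place the WT values. The labels number the 2 WT libraries as replicates and do not say whether each came from its own mouse.

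DNA methylation in mammals is placed mainly on the cytosine of CpG dinucleotides. Most CpGs of a somatic genome carry it, while CpG islands, the CpG-rich stretches at many gene starts, are usually free of it. Genes that are permanently silent in a cell type can carry methylation at their starts, and genes that define a lineage commonly lose it there during differentiation. CD8+ T cells kill infected cells through the T cell receptor and the coreceptor Cd8a/Cd8b1, and in the LNs of an unchallenged mouse most of them are naive or resting.

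RRBS cuts DNA with MspI at CCGG, so CpG-rich sequence is favored and sparse sequence is seen only near such a site. A level is the percent of reads that kept a C at the CpG, with the reads of both libraries pooled unless a library is named. WT replicate 1 had 44109392 reads on 3445555 CpGs with a median of 5 reads per CpG, and WT replicate 2 had 54296402 reads on 3067773 CpGs with a median of 7. The most covered CpG took 8.60% and 8.29% of these reads and was removed by the upper limit. The reads carry no molecular identifiers, so intervals and tests on reads cover counting error only. Reads summed over CpGs count a read again at each CpG it covers. Such counts are not independent, so intervals over several CpGs can be too narrow and p-values too small. In DNA from many cells, a level between 0% and 100% can come from methylation of a share of the cells or of 1 allele in each cell, which cannot be told apart here.

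The cells were first checked at the 6 genes that mark them. Only Cd8b1, the beta chain of the CD8 coreceptor, had at least 3 kept CpGs within 1 kb of its start. Its 6 CpGs lie in an intron, 246 to 464 bp after the start, and were methylated at 38.5% in the pooled reads. Both libraries gave 37.8% as the mean over these CpGs. Of the summed reads, 39.2% were methylated in WT replicate 1 (95% exact binomial interval 34.2% to 44.4%, 370 reads) and 36.1% in WT replicate 2 (31.1% to 41.4%, 349 reads). At the same CpGs the hSTAT5B libraries had 18.8% and 17.5%, and the hSTAT5BN642H libraries had 8.51% and 11.8%. WT was thus the highest of the 3 genotypes at this stretch of Cd8b1, in both libraries.

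Cd8a, the alpha chain, had no kept CpG within 1 kb of its start and 7 kept CpGs between 1131 and 1342 bp after it, in coding sequence and an intron. Here the 2 WT libraries differed. WT replicate 1 had a mean of 49.4% and WT replicate 2 had 17.03%. Their intervals on summed reads did not overlap, at 41.7% to 57.2% of 170 reads and 11.7% to 22.0% of 214 reads. The other 4 libraries had 18.0%, 25.2%, 10.1%, and 5.63%, so that WT replicate 2 was within their range and WT replicate 1 above it. At each of the 7 CpGs of Cd8a, WT replicate 1 was the highest of the 6 libraries.

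The DNA of both coreceptor stretches is shown to place these CpGs, 5' to 3' on the strand of the gene in GRCm38, with each kept CpG in capitals. That of Cd8a is chr6:71374550-71374778 and that of Cd8b1 is chr6:71323026-71323261, both on the + strand. The third stretch is an intronic cluster of Thy1 at chr9:44044920-44044960, also on the + strand, which is described next.
Cd8a: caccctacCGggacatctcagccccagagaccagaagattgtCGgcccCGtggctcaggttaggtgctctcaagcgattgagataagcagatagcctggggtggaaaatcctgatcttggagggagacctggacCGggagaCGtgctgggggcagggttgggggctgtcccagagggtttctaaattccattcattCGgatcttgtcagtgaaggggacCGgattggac
Cd8b1: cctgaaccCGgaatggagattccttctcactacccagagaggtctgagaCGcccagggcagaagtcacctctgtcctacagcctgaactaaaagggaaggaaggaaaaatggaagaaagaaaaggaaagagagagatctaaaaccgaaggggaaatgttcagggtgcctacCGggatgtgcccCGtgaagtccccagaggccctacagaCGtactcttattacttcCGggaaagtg
Thy1: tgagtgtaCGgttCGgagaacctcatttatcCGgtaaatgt

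Thy1, a surface protein of T cells, had 2 kept CpGs within 1 kb of its start, with means of 11.9% in WT replicate 1 and 12.5% in WT replicate 2. At its cluster 1544 to 1567 bp after the start the 2 libraries had 68.4% (56.9% to 78.4%) and 37.6% (27.8% to 48.3%) of 79 and 93 reads. Lck, the kinase that starts T cell receptor signaling, had none near its start and 1 kept CpG 1216 bp after it, with 5 of 32 methylated reads in WT replicate 1 and 2 of 49 in WT replicate 2. A further part of Lck was nearly free of methylation, since 0% to 17.6% was measured at the 8 kept CpGs between 16977 and 17498 bp in each library. The last 3 CpGs of Lck, from 24711 bp on, were at 97.1% to 100%. Cd3g, a chain of the CD3 complex, had 4 kept CpGs, all from 6438 bp on in the gene, with means of 76.4% and 72.2%. Cd3e had no kept CpG. For 5 of the 6 marker genes fewer than 3 CpGs near the start were kept, so that the label could be checked at Cd8b1 and within gene bodies only.

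Other T cell genes differed between the libraries in either direction. At a CpG in the coding sequence of Cd3d, 3933 bp after the start, 12 of 15 reads were methylated in WT replicate 1 and 1 of 14 in WT replicate 2. The other libraries had 0%, 0%, 23.5%, and 0% there. Cd6, a surface receptor of T cells, went the other way, with promoter levels of 8.98% in WT replicate 1 and 22.7% in WT replicate 2. Because of such differences, each list of genes below is given for each WT library as well as pooled, and the values of T cell and B cell genes in both libraries are set side by side further on.

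**Figure D1:**
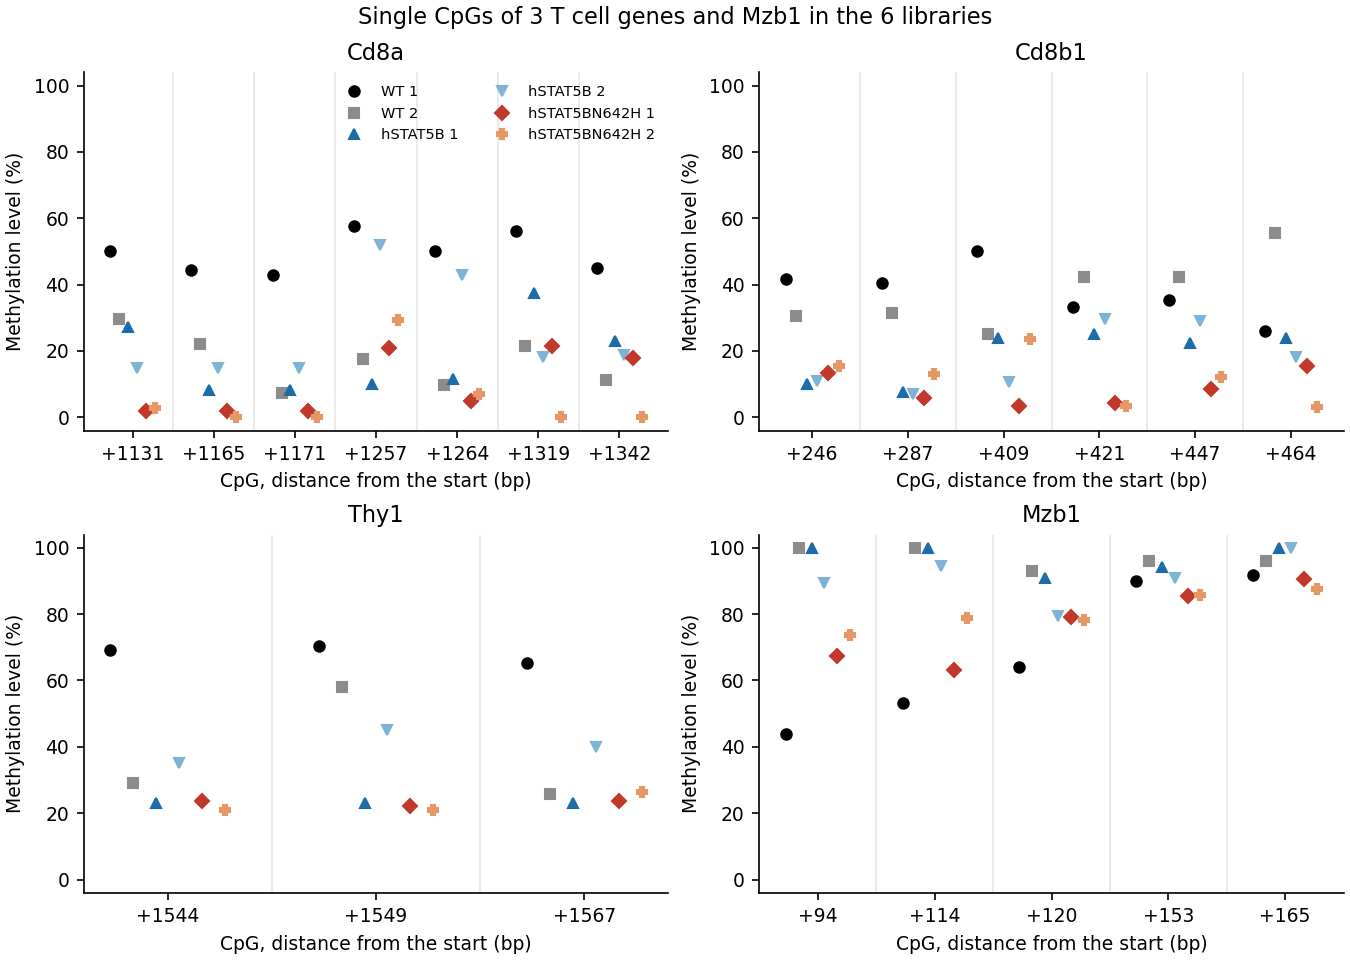
Methylation level in percent (vertical axes, 0 to 100) of single CpGs of Cd8a, Cd8b1, Thy1, and Mzb1, placed by their distance from the gene's start in bp, with 1 point for each library that has at least 5 reads. WT replicate 1 (black circles) lies above the other 5 libraries at all 7 CpGs of Cd8a, both WT libraries lie high at Cd8b1, and WT replicate 1 is the lowest at 3 of the 5 CpGs of Mzb1.

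Over all 949713 CpGs the mean level was 63.4%, with 63.2% in WT replicate 1 and 63.6% in WT replicate 2. Few CpGs were in between, since 30.3% were below 20%, 59.0% above 80%, and 10.6% from 20% to 80%. No methylated read was seen at 16.0% of the CpGs, and no unmethylated read at 17.7%. Pearson's r between the libraries across CpGs, which are not independent, was 0.973. The libraries differed by at least 20 percentage points at 6.34% of the CpGs. At CpGs from 20% to 80%, the squared difference between them was 2.24 times what binomial counting error gives, so the 2 libraries differed by more than read sampling. The mean by chromosome ran from 55.2% on chromosome 11 to 68.3% on chromosome 1.

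Promoters were the least methylated place. Each CpG was assigned to a promoter when it lay within 1 kb of a protein-coding start, and otherwise to an exon, an intron, or intergenic sequence. The 223304 promoter CpGs had a mean of 7.66% (7.57% and 7.73% in the 2 libraries). The 110370 exonic CpGs had 68.6% (68.3% and 68.9%), the 281700 intronic CpGs 80.6% (80.4% and 80.8%), and the 334339 intergenic CpGs 84.4% (84.1% and 84.6%). The differences between places were far larger than those between the libraries, whose SD (n = 2) was 0.115 points in promoters and 0.357 points in intergenic sequence. Below 20% were 91.8% of promoter CpGs, 24.7% of exonic, 11.3% of intronic, and 7.22% of intergenic CpGs. The exon value rests on the order of assignment. When exons came before promoters, so that first exons counted as exons, it was 36.7%, and promoters then had 8.85%.

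The relation to CpG islands divided the genome further. The 234360 CpGs in islands had a mean of 6.86%, and the 621880 CpGs of the open sea, over 4 kb from any island, had 87.1%. Shores, which reach 2 kb from an island, were in between with 36.7%, and shelves, from 2 to 4 kb, had 77.1%. In the open sea exons had 88.1%, introns 88.1%, and intergenic CpGs 88.3%. In WT replicate 1 these were 87.8%, 87.8%, and 88.0%, and in WT replicate 2 they were 88.3%, 88.3%, and 88.6%. Intergenic CpGs were thus slightly higher in both libraries. Within islands the places differed more. Promoter CpGs in islands had 3.35%, intronic ones 10.4%, intergenic ones 13.7%, and exonic ones 24.4%. Promoter CpGs of the open sea had 40.6%, which is less than in the rest of the open sea and far more than in promoter islands. Shores had 16.6% in promoters and 47.5% to 59.6% elsewhere.

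**Figure D2:**
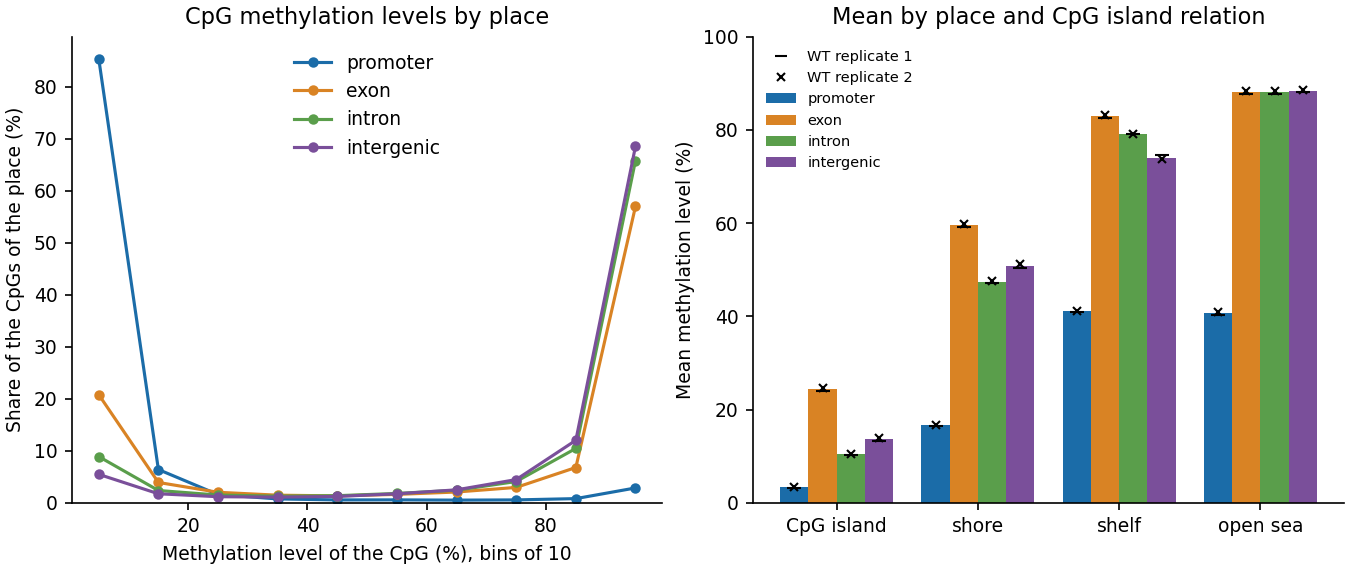
Left, the share of the CpGs of each place (vertical axis, percent) in bins of 10 points of methylation level (horizontal axis, percent), both WT libraries pooled. Right, the mean level in percent by place and CpG island relation, as bars for the pooled reads with 1 mark for each WT library. Most promoter CpGs fall in the lowest bin and most others in the highest, and the marks of both libraries lie on each other.

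Counted as whole islands, 12493 islands had at least 3 kept CpGs. Of the 9324 islands with promoter CpGs, 97.7% were below 20% and 63 above 80%. Of the 3169 islands without promoter CpGs, 69.5% were below 20%, 11.01% from 20% to 80%, and 19.5% above 80%. Islands above 80% were found mostly in exons, where 448 of 1625 such islands, or 27.6%, were that high. In introns this was 11.2% and in intergenic sequence 10.8%. The methylated islands of these cells were thus mainly exonic islands away from gene starts.

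The level around gene starts had its minimum at the start. For genes with an island within 1 kb of the start, CpGs in the 200 bp before the start had 3.30%, those between 800 and 1000 bp before it 19.6%, and those between 800 and 1000 bp after it 10.97%. The low zone reached farther into the gene than upstream, since CpGs 1400 to 1600 bp away had 30.3% downstream and 37.0% upstream. Starts without an island also had a dip, to 26.4% in the 200 bp before the start, between 69.9% at 800 to 1000 bp upstream and 57.6% as far downstream. Both libraries followed the same course, with 26.3% and 26.5% in the lowest bin of starts without an island.

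**Figure D3:**
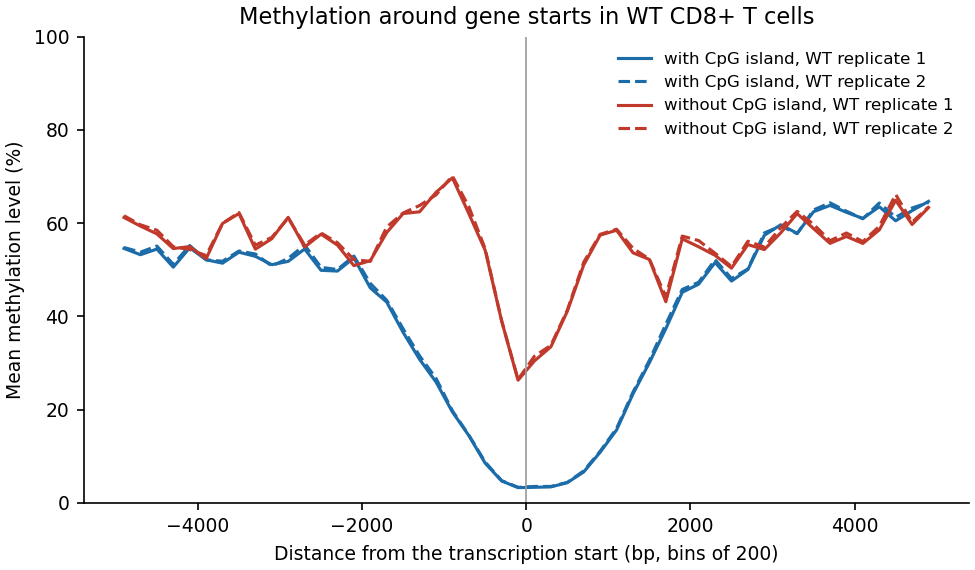
Mean methylation level in percent (vertical axis) by distance from the transcription start in bins of 200 bp (horizontal axis, negative upstream), for starts with an island (blue) and without (red). Solid lines are WT replicate 1 and dashed lines WT replicate 2. Both classes dip at the start, to 3.30% and 26.4% in the pooled reads, and the lines of the 2 libraries nearly coincide.

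Sequence context went with small differences within the open sea. Outside promoters and islands, CpGs in repeats as masked in the genome sequence had 91.5%, and unmasked ones 85.8%. Masked CpGs did not count toward an island, so CpG-rich repeats can lie in the open sea. CpGs with no other CpG within 100 bp in the genome had 91.7%, those with 1 to 2 had 90.3%, and those with 3 to 5 had 86.9%. With 10 or more the mean was 87.6%. CpGs flanked on both sides by A or T had 84.3%, those with 1 such flank 87.0%, and those with none 89.0%. Levels from 20% to 80% were found at 19.3% of the CpGs with both flanks A or T and at 10.8% of those with none. Both libraries had the same order. These classes overlap with each other, with depth, and with the distance from MspI sites, and their parts were not tested.

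Promoter levels could be measured for 12788 of 20698 autosomal protein-coding genes, with at least 3 CpGs within 1 kb of the start. Of all these promoters 85.6% were below 20% and 5.95% above 80%. The level went with the island. Among 10701 promoters with an island 93.8% were below 20%, 0.981% above 80%, and the median was 2.53%. Among 2087 without one 43.4% were below 20%, 31.4% above 80%, and the median was 33.0%. RRBS saw 92.5% of the genes with an island and 22.9% of those without, so the picture of island-poor genes rests on the share that lies near MspI sites. Promoters without an island ordered by their CpGs in the 300 bases around the start, 250 before it and 50 after. The 817 with 10 or more CpGs had a median of 7.66%, the 784 with 5 to 9 had 54.3%, those with 2 to 4 had 84.2%, and the 94 with 0 or 1 had 88.2%.

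The gene lists hold 373 genes in 21 lists, of which 187 had a measured promoter. There were 42 with 1 or 2 kept CpGs, 138 with none, 5 on the X chromosome, and 1 with no match in the annotation. The 7 lists of T cell genes hold 119 genes, and 49 were measured. Below 20% were 39 of these 49, or 79.6%, against 85.6% of all promoters, and 3 were above 80%, or 6.12%, against 5.95%. With an island 30 of 31 were below 20%, against 93.8% in all such promoters. Without an island 9 of 18 were below 20% and 3 above 80%, against 43.4% and 31.4%, and the median was 18.8%, against 33.0% in all promoters without an island. That median was 23.1% in WT replicate 1 and 12.6% in WT replicate 2. These counts are close to those of all promoters, and no test was made on the lists.

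Transcription factors of T cells had uniformly low promoters. All 19 measured of 21 were below 20%, with a median of 1.92%, and 18 have an island, a class with 93.8% below 20% among all promoters. The lowest were Lef1 at 0.484% and Tox at 0.556%, and the highest were Foxp1 at 8.47% and Id3 at 4.46%. Tcf7, which with Lef1 keeps T cells naive, had 2.93% over 38 CpGs, and Bcl11b, which fixes the T cell fate, had 2.48% over 65 CpGs. In both libraries Tcf7 was low, at 2.12% and 3.90%. The endogenous Stat5b promoter had 2.12%. Genes of homing and survival of naive cells had islands at all 6 measured of 11, and all 6 were below 20% as means over CpGs. Their lowest were the survival factor Bcl2 at 1.27% and the cytokine receptor Il4ra at 1.37%, and their highest the receptors Il6ra at 13.2% and Ccr9 at 4.01%. In summed reads Il6ra was above the limit, at 24.2%.

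The T cell surface and receptor signaling list was spread over the whole range. Of 29 genes 10 were measured, with 5 below 20%, 4 in between, and 1 above 80%. Of these 10, 8 have no island, with 4 below 20% and 1 above 80%. Among all promoters without an island 43.4% were below 20% and 31.4% above 80%. Prkcq, a kinase of receptor signaling with an island, had 0.299%, and the costimulatory receptor Cd27 had 10.3%, with 7.64% and 12.1% in the 2 libraries. Skap1, an adaptor with an island, had 22.1%, with 18.1% and 24.6%. The kinase Txk had 68.6% over 4 CpGs. Lat, the adaptor that carries the receptor signal, had 98.1% over 7 CpGs, with 98.7% and 97.8% in the 2 libraries. All 7 lie upstream of Lat, from -846 to -778 bp, and inside the neighboring gene Spns1, so nothing nearer to the Lat start was measured. Zap70, the kinase bound by the activated receptor, had 3 CpGs from 88 bp before to 93 bp after its start, with 43.7% in WT replicate 1 and 29.3% in WT replicate 2. The intervals of its summed reads overlapped, at 31.9% to 56.0% and 22.9% to 37.1%. Among the genes of the cytotoxic lineage the factors Eomes and Tbx21 had 2.73% and 5.58%, below Cd8b1 with its 38.5%.

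Effector genes were poorly covered, with 3 of 20 measured. Gzma, a granzyme, had 8.40%, and its 2 CpGs upstream of the start were methylated in 10 of 30 reads in WT replicate 1 and 0 of 64 in WT replicate 2, with a 95% exact interval up to 5.60% for the second. Ccl3, a chemokine, had 20.7%, with 27.3% and 9.99%. Gzmm, another granzyme, had 91.7% over 3 CpGs 478 to 566 bp after its start, with 88.1% and 94.2%. Of 15 genes of activation and inhibition 4 were measured. The factors Batf and Prdm1 had 2.49% and 2.98%, the ectonucleotidase Entpd1 had 12.9%, and the costimulatory receptor Icos had 20.6%. In the list of helper and regulatory T cells the factors Bcl6 and Maf had 1.61% and 1.98%, and Zbtb7b, which directs cells to the CD4 fate, had 2.43%. Il13, a cytokine of type 2 helper cells, had 83.8% over 3 CpGs, with 93.3% and 78.6%. Of the 5 factors named here for the cytotoxic and the helper lineage, all but Bcl6 have an island, a class in which 93.8% of all promoters were below 20%.

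Stretches of 3 T cell genes near the start show how few CpGs carry these values. They are 2 of the 3 CpGs of Zap70 at chr1:36761702-36761737 on the + strand, Gzma at chr13:113101090-113101154 on the - strand, and Icos at chr1:60978178-60978214 on the + strand, printed 5' to 3' on the strand of the gene with kept CpGs in capitals.
Zap70: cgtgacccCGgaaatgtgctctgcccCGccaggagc
Gzma: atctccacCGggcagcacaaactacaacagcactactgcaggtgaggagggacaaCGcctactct
Icos: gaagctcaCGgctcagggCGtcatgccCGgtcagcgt

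Genes of other blood lineages were set against these. Of 93 genes 26 were measured, with 17 below 20% (65.4%, against 85.6% of all promoters) and 4 above 80% (15.4%, against 5.95%). All 13 with an island were below 20%, against 93.8% of all promoters with one. Without an island 4 of 13 were below 20% and 4 above 80%, against 43.4% and 31.4% of all promoters without one. The share above 80%, 30.8%, was thus close to that of all such promoters. The median was 69.4%, against 33.0%. In the B cell list 4 of 24 were measured. Ebf1, the factor that starts the B cell program, has an island and had 1.76%, while the surrogate light chain genes Igll1 and Vpreb1 had 69.4% and 93.5%. In the myeloid list Cd14 and the factor Cebpa had 1.04% and 1.37%, and Cebpe and Adgre1, a macrophage surface gene, had 60.1% and 97.7%. Csf3r, a receptor of granulocytes with no island, had 9.65% over 3 CpGs. Klra8, a receptor of natural killer cells, was the only one measured of 9, at 70.3%. In the erythroid list the factors Klf1 and Tal1 had 1.61% and 3.18%, Nfe2 had 4.01%, and Itga2b, an integrin of platelets, had 78.4%. In the stem cell list the factor Meis1 had 2.36%, the surface genes Cd34 and Procr had 2.71% and 5.70% with no island, the factor Hlf had 6.33%, and Lmo2 had 93.3% over 3 CpGs.

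Genes of other tissues were spread over the whole range. Of 126 such genes 85 were measured, with 47 below 20%, or 55.3%, and 27 above 80%, or 31.8%. Among all promoters these shares were 85.6% and 5.95%. With an island 40 of 56 were below 20%, against 93.8% of all promoters with one, and 12 above 80%, against 0.981%. Without an island 7 of 29 were below 20%, against 43.4%, and 15 above 80%, against 31.4% of all promoters without one, and the median was 81.5%. The germline list holds 13 of the 56 promoters with an island and all of the 12 above 80% but Cldn4. In all, 15 of the 27 promoters above 80% are of that list. Of 18 liver genes only 3 were measured, and these were above 90%, with Apob at 98.2%, Pck1 at 98.0%, and the factor Hnf4a at 94.0%. None of the 3 has an island, and 31.4% of all promoters without one were above 80%. Of the neural genes 17 of 20 were below 20%, a share close to the 85.6% of all promoters. Neurod1 and Tubb3 were the lowest with 2.56% and 3.72%, and Snap25, Syt1, and Slc17a7 had 5.97%, 9.66%, and 15.8% without an island, and Slc17a7 had 37.1% in summed reads. Camk2a had 85.5% and Mbp, a myelin gene, 97.1%. Muscle genes ran from Nkx2-5 at 14.5% and Myod1 at 22.9% to Myh6 at 55.1% and Myog at 94.97%. Epithelial genes ran from Ovol1 at 5.94% and Grhl2 at 6.78% to Cldn4 at 89.3%, which has an island, and Krt5 at 91.8%.

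Of 18 developmental factors, 14 of them with an island, 17 were below 20%, against 85.6% of all promoters and 93.8% of those with an island, among them Hoxa13 at 1.43% and Hoxb1 at 14.2%, and Hand1 had 26.9%. Gata6, Hoxc9, and Tbx5 had 1.96%, 11.3%, and 12.8% although no island was called within 1 kb. Among 11 pluripotency genes Klf4 had 1.56% and Utf1 3.08%, and Lin28a had 10.8% without an island. Zfp42 and Dppa4, genes of pluripotent cells, had 90.3% and 94.0%. Pou5f1 had 59.96%, with 52.2% and 68.9% in the 2 libraries.

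Germline genes were methylated in spite of their islands. Of 17 measured, 15 were above 80%, with a median of 95.6%. Of the 17, 13 have an island, and all of these but Zpbp2 and Dazl were above 80%, against 0.981% of all promoters with one. The 4 without an island were all above 80%, against 31.4% of all promoters without one. Members of the list were chosen with earlier results of these data known, so the contrast is no test. The highest were Dpep3 at 98.6% and Asz1 at 97.9%, and the lowest were Zpbp2 at 1.13% and Dazl at 60.7%. Dazl, an RNA-binding protein of germ cells, had 60.6% in both libraries as means over 36 CpGs. In summed reads Dazl was above the limit, at 84.8%. Ddx4, Hormad1, and Sycp1, with 29, 18, and 15 CpGs, had 96.7%, 96.5%, and 92.6%. The libraries differed by less than 2 points at each of these. As controls, housekeeping genes had a median of 1.97%, with 18 of 19 below 20%, from Sdha at 0.240% to Rplp0 at 12.6% and Chmp2a at 23.2%. Of these 19, 18 have an island, a class with 93.8% below 20% among all promoters. Imprinted genes are methylated on the allele of 1 parent, and all 8 measured here have an island. Of these, 7 were between 20% and 80%, against 5.22% of all promoters with one. Their median was 60.8%. The highest were Nap1l5 at 68.0% and Nnat at 67.8%, and the lowest Grb10 at 6.42% and Mest at 43.6%. Peg3 and Usp29 share the same CpGs and count as 1 observation.

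**Figure D4:**
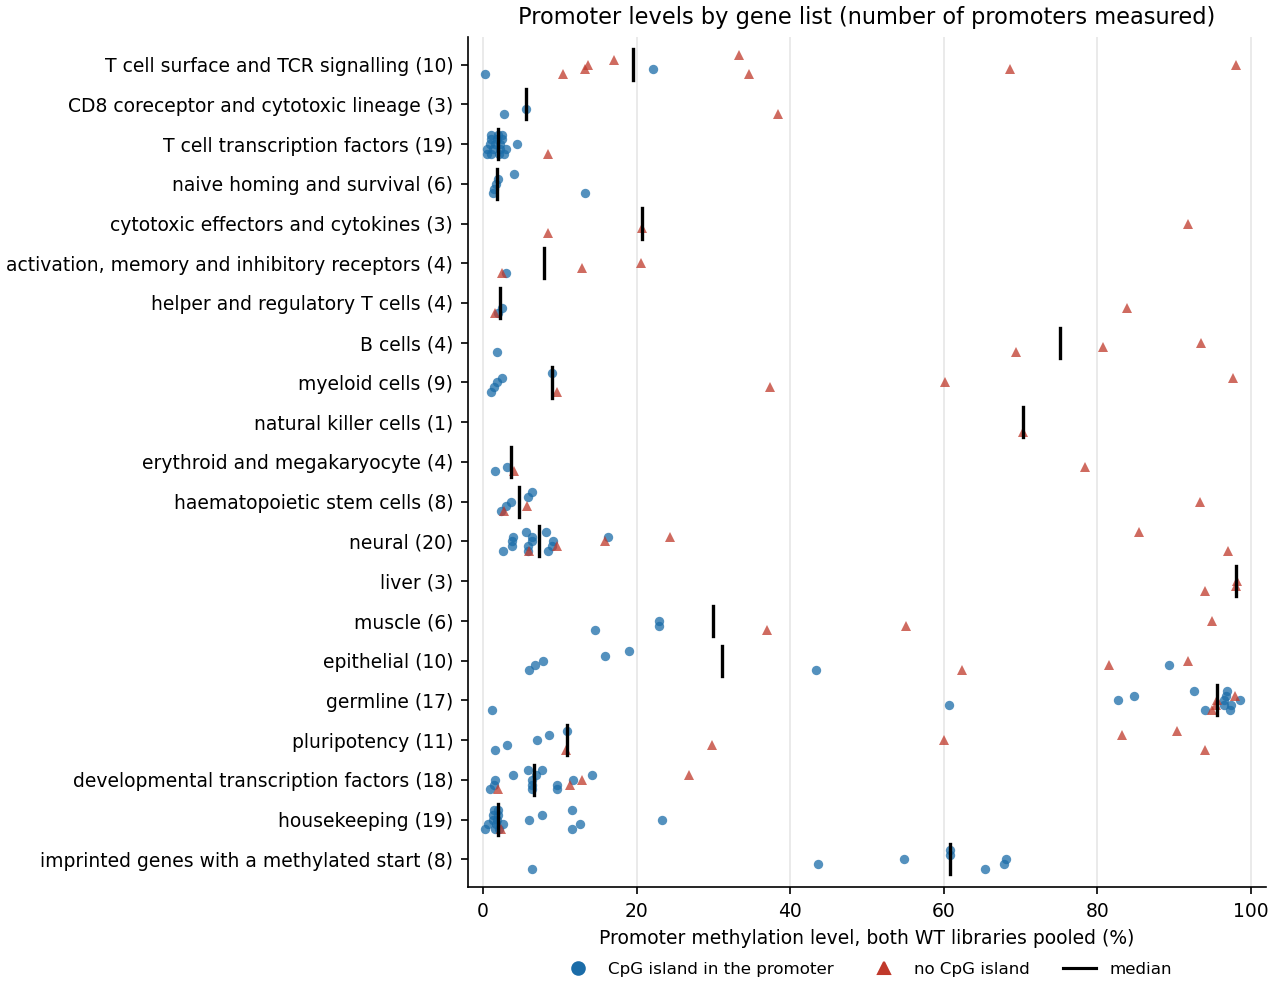
Promoter methylation level in percent (horizontal axis, both WT libraries pooled) of the measured genes of each list (rows, number of genes in parentheses). Blue circles are promoters with a CpG island, red triangles those without, and black bars are medians. T cell factors, homing, and housekeeping genes sit near 0, germline genes sit at the high end in spite of islands, and imprinted genes sit in the middle.

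Island sequence did not by itself go with a low level, which is shown by 2 promoters. The stretch of Bcl11b at chr12:108003795-108003846 on the - strand had 0% in WT replicate 1 and 2.38% in WT replicate 2 over its 3 kept CpGs. That of Hormad1, a gene of meiosis, at chr3:95559461-95559676 on the + strand had 97.1% and 96.7% over 10 CpGs. Vpreb1 at chr16:16868658-16868790 and Apob at chr12:7977097-7977329 stand for methylated genes of the B cell and liver lists, the first in coding sequence on the - strand with 7 kept CpGs and the second upstream of the start on the + strand with 3. All are printed 5' to 3' on the strand of the gene with kept CpGs in capitals.
Bcl11b: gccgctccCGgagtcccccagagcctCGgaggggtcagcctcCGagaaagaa
Hormad1: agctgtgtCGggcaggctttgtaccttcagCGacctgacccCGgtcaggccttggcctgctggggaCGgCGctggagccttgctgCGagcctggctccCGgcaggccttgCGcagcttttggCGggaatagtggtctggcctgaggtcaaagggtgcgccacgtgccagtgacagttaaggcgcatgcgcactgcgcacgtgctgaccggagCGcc
Vpreb1: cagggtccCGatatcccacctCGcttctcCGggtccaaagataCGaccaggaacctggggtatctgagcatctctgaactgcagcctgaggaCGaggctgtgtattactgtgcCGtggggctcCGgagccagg
Apob: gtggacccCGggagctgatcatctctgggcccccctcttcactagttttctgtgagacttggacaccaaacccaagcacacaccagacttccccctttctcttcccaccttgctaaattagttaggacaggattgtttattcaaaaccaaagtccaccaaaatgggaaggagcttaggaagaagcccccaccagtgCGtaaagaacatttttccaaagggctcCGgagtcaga

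Promoters without an island were also described by short motifs in the 300 bases around the start, searched on both strands. GGGCGG, the core bound by SP and KLF factors, was in 42.2% of the 905 promoters below 20%, in 32.1% of the 526 in between, and in 18.8% of the 656 above 80%. It was in 46.2% of all protein-coding starts and in 15.7% of all starts without an island. ACTTCCG, an ETS site, was in 8.07%, 4.37%, and 3.05% of the 3 groups, and in 8.35% of all starts. TATAAA, the TATA box, went the other way, with 8.51%, 12.2%, and 18.3%, and 12.6% of all starts. TGTGGT, the core bound by RUNX factors, was in 14.9%, 17.1%, and 18.8%, and in 15.03% of all starts. AGATAA, bound by GATA factors, was in 10.7%, 9.51%, and 14.2%, and in 9.60% of all starts. GGGCGG and ACTTCCG hold a CpG, and the windows below 20% had a median of 11 CpGs against 5 in those above 80%. The counts thus follow CpG density in part by the letters of the motifs. With 10% and 90% as limits, which were chosen after seeing the data, GGGCGG was in 43.6% and 16.7%, and TATAAA in 9.12% and 19.3%.

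The 2 WT libraries were then compared promoter by promoter with Fisher's exact test on summed reads. This compares the 2 libraries and not conditions. Since summed reads count a read again at each CpG it covers, the p-values can be too small and the calls too many. A promoter was called at an adjusted p under 0.05, with Benjamini-Hochberg adjustment over all 12788 promoters, and a difference of at least 20 points. There were 16 calls higher in WT replicate 1 and 16 higher in WT replicate 2, or 0.125% of the promoters in each direction. Pearson's r between the libraries across promoters was 0.989.

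Icos was the only gene of the lists among the calls. It had 31.5% in WT replicate 1 and 11.2% in WT replicate 2 over 5 CpGs (adjusted p = 0.0349, Fisher's exact test). The difference lay at 3 intronic CpGs, where 28 of 56 reads and 12 of 65 reads were methylated. At these 3 CpGs the other 4 libraries had 6.98%, 2.78%, 12.9%, and 2.08%. Mzb1, a protein of the endoplasmic reticulum in B cells and plasma cells, went the other way. Its 5 coding CpGs had 68.6% in WT replicate 1 and 97.0% in WT replicate 2 (adjusted p = 8.34e-08, Fisher's exact test), and 97.0%, 90.8%, 77.1%, and 80.8% in the other 4 libraries. WT replicate 1 was thus the highest of the 6 libraries at Icos and the lowest at Mzb1.

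Among called promoters with at least 5 CpGs, the largest difference was at Ndufc2, a subunit of respiratory complex I with an island. Its 5 CpGs 240 to 273 bp after the start had 52.7% in WT replicate 1 and 4.32% in WT replicate 2. Summed over these neighboring CpGs, 39 of 74 and 8 of 185 read counts were methylated (adjusted p = 7.24e-15, Fisher's exact test). At 9 CpGs with 5 reads in all libraries, the other 4 libraries had 0.794% to 3.81%, so that only WT replicate 1 was high. Its sequence at chr7:97400235-97400285 on the + strand, within the coding exon, is shown with the same marks.
Ndufc2: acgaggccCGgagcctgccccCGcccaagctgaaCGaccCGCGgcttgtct

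Asb4, an imprinted gene of ubiquitin ligation, had 46.4% and 10.2% over 8 CpGs. Here the other libraries were split too, with 8.38% and 11.5% in hSTAT5B and 47.0% and 47.9% in hSTAT5BN642H. Zscan22, a zinc finger gene with an island, had 25.6% and 0%, and the other 4 libraries were at 0% to 1.52%. The other promoters with at least 5 CpGs and a higher level in WT replicate 1 were Noxa1, Gm14327, Pomc, Zfp970, and Taf8, with differences of 20.3 to 25.9 points. Higher in WT replicate 2 were Cox4i2 with 21.8% and 54.6%, Evpl, an epithelial gene with 4.83% and 32.3%, AI429214 with 2.60% and 29.5%, and the protocadherin Pcdhb1 with 10.96% and 37.1%. Cdkn1c, an imprinted cell cycle inhibitor, had 45.4% and 66.9%. Rbmxl2, Palm3, Tmem223, and Gm10273 differed by 20.1 to 21.0 points. At the 32 CpGs of Rbmxl2 with 5 reads in all libraries, however, the WT libraries had 47.6% and 48.7%. Of the calls that could be read in all 6 libraries, WT replicate 1 alone lay outside the range of the other 4 libraries at 3 promoters called higher in it and 3 called lower. WT replicate 2 alone lay outside it at 3 and 2, both at 4 and 8, and neither at 3 and 2. These promoters were chosen because the WT libraries differ there, which favors a WT value outside the range. No share over all promoters is given, so nothing is concluded from these counts.

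The libraries were also compared by list, with no test. Among T cell surface and signaling promoters 6 of 10 were higher in WT replicate 1. The median difference was 0.841 points, against -0.0895 points in all promoters. The 3 measured effector promoters had medians of 27.3% and 9.99%. In the B cell list 1 of 4 was higher in WT replicate 1, with a median of -7.92 points, and none of the 4 was called. To see more genes, the window was widened to 5 kb either side and CpGs in islands were left out, a choice made after seeing the data. Of all 12579 genes in these windows, 2.27% were at least 10 points higher in WT replicate 1 and 3.48% in WT replicate 2. Among T cell surface and signaling genes 3 of 16 were that much higher in WT replicate 1 and 0 in WT replicate 2. These were Sit1, an inhibitory adaptor with 30.8% and 19.4%, Grap2, an adaptor with 55.8% and 42.7%, and Ubash3a with 29.7% and 13.7%. Cd8a had 58.7% and 17.7% in this window. The medians of the surface and signaling list were 46.6% and 41.2%. T cell transcription factors were higher in WT replicate 1 at 12 of 13, by a median of 2.49 points, and none by 10 points. The share of all genes higher in WT replicate 1 by any amount is not given here, so these counts of direction have no background. At least 10 points higher in WT replicate 1 were also 2 of 9 effector, 2 of 7 imprinted, and 2 of 19 neural genes, with 1, 0, and 0 in WT replicate 2. Such differences were thus not particular to the surface and signaling list.

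In the B cell list 17 of 24 genes were measured in the wide window, with medians of 64.2% in WT replicate 1 and 69.2% in WT replicate 2. Of these 10 were higher in WT replicate 2 and 7 in WT replicate 1. By at least 10 points 1 was higher in WT replicate 2 and 2 in WT replicate 1, which were Fcrla with 64.2% and 54.1% and Cd180 with 58.8% and 47.3%. At CpGs with 10 reads in all 6 libraries WT replicate 1 was the lowest of the 6 libraries at 9 of 14 B cell genes, against 21.5% of all genes. It was the highest at 6 of 13 T cell surface and signaling genes, against 16.1% of all genes, but at 0 of 12 T cell transcription factors, 0 of 4 homing and survival genes, and 0 of 6 effector genes. Within 1 kb of the start WT replicate 1 was the highest at 1 of 9 surface and signaling genes, against 16.6% of all genes, and WT replicate 2 at 3 of 9. The medians of these B cell genes were 67.4% and 66.9% in WT, 73.1% and 75.6% in hSTAT5B, and 70.1% and 72.3% in hSTAT5BN642H. Whether other cells in the enriched fraction had a part in these differences was not tested.

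**Figure D5:**
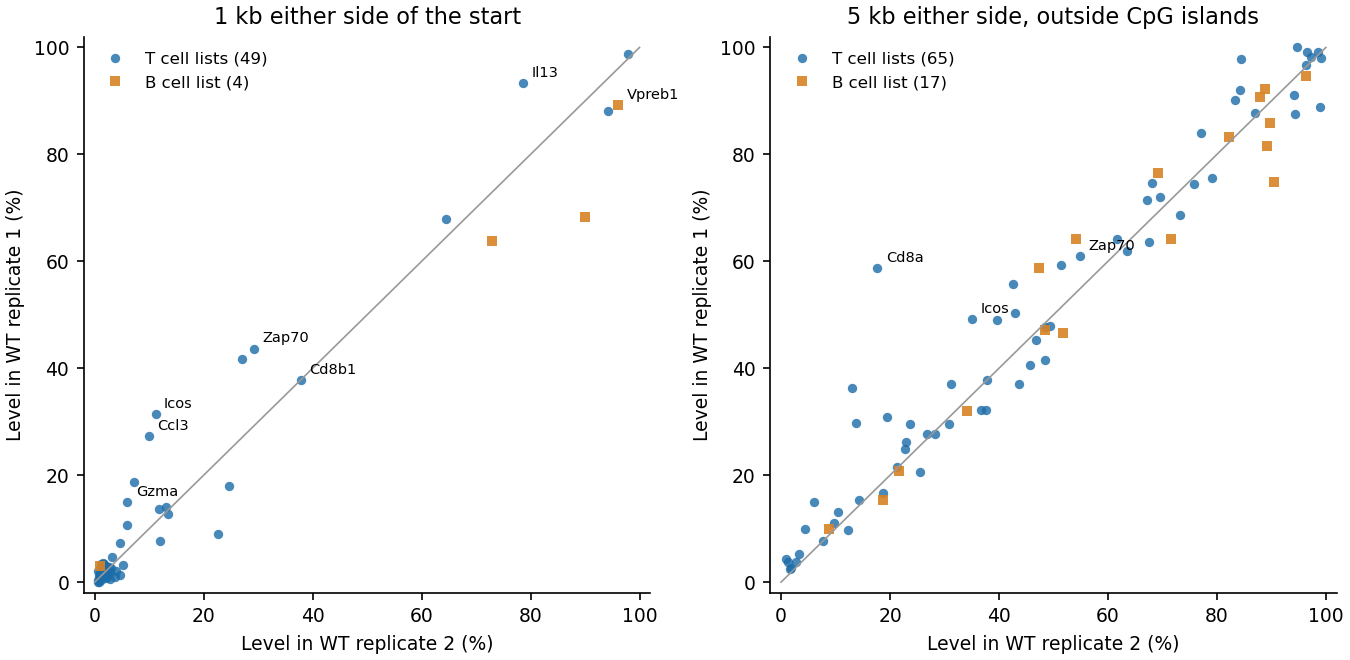
Mean methylation level in WT replicate 1 (vertical axis, percent) against WT replicate 2 (horizontal axis, percent) for genes of the T cell lists (blue circles) and of the B cell list (orange squares), within 1 kb of the start (left) and within 5 kb outside CpG islands (right). The line marks equal levels. Icos, Ccl3, and Zap70 (left) and Cd8a (right) lie above it, and Cd8b1 (left) lies on it.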

How the data were processed

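Genomic DNA of 6 libraries was cut with MspI, bisulfite converted, and sequenced as RRBS. Per the study's methods, Trimmomatic removed adapters, BSMAP placed the reads on the GRCm38 genome (its RRBS option), and in-house Python scripts made the calls. The deposited files list each CpG with a pair of methylated and total read counts, and the deposited score column repeats their ratio. Depth limits single CpGs to coarse steps.

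Only the WT libraries were described. Levels pool both libraries at CpGs with at least 10 reads in each. CpG islands (16072) were found in GRCm38 with scores of 17 per CpG and -1 per other base, length over 200 bp, GC over 50%, and observed/expected CpG over 0.6. Bases masked as repeats did not count as C or G in this search. Starts came from the GENCODE annotation. A promoter level is the mean of at least 3 CpGs within 1 kb. Libraries were compared with Fisher's exact test on summed counts, Benjamini-Hochberg adjusted. A read that covers several CpGs enters these counts at each of them. Named genes were the markers, the 2 lowest and 2 highest of each list, called listed genes, genes without an island that went against their list, and the 10 largest called differences each way. Other names were added after values were seen, and some genes that the rule names are not reported here. Members and lists were chosen with earlier results of these data known. Scripts were tested on simulated data and ran in Python (version 3.11.15) with scipy (1.17.1) for tests, pandas (2.3.3) and numpy (2.4.6) for tables, numba (0.67.0), and matplotlib (3.10.9).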

Additional observations from a re-analysis of the deposited data

How the results depend on the processing

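No paired analysis was possible because only the WT libraries were described and no groups were compared. The intergenic level exceeded the promoter level by 76.7 points, and by 77.0 with a minimum of 5 reads, 74.9 with 20 reads, 75.1 with summed reads, 75.5 with exons placed before promoters, and 76.4 to 77.0 with 1 WT library left out. The open sea exceeded islands by 80.2 points, and by 80.7, 78.4, and 78.9 with 5, 20, and summed reads, and 80.3 to 80.8 with 1 library left out. Of T cell promoters 79.6% were below 20%, and 74.5% with 5 reads, 84.8% with 20 reads, 89.5% with at least 5 CpGs, 87.8% within 500 bp, 77.6% with summed reads, and 77.8% to 80.4% with 1 library left out. Of promoters of other lineages 57.7% were below 20%, and 52.7% with 5 reads, 67.8% with at least 5 CpGs, 61.3% within 500 bp, 55.9% with summed reads, and 54.5% to 54.8% with 1 library left out. Without islands, a choice made after seeing the data, these were 50.0% and 26.2%. The other lineages include the germline list, in which 1 of 17 measured promoters was below 20%. The 16 promoters called higher in each WT library became 50 in WT replicate 1 and 66 in WT replicate 2 with a difference of 10 points, and 6 and 9 with 20 reads, where 9168 promoters were tested and 9 calls were shared. With at least 5 CpGs 10 were higher in WT replicate 1. The causes were not tested beyond the smaller number of promoters. Most genes without an island had too few CpGs kept, and many T cell starts were therefore not measured.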

Other observations

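Among 105 promoters with an island and a level above 80%, chosen for their values and given with no test, further genes of meiosis and sperm formation were found. Spo11, which makes the DNA breaks of meiosis, had 98.1% over 17 CpGs, and Btbd18 had 98.6% over 11. Hsf5, a factor of spermatocytes, had 93.9% over 25 CpGs. Tex14 and Rad51c share 16 CpGs at 94.9%. These lie from -39 to 211 bp at the Tex14 start but from -753 to -503 bp of the Rad51c start. Nothing nearer to the Rad51c start was measured. Genes of the skin and other epithelia were present too, with Flg, a protein of the outer skin, at 96.2% over 24 CpGs and Krt7 at 94.5%. Hoxa5, a patterning factor, had 93.8% over 38 CpGs, with 92.5% in WT replicate 1 and 94.7% in WT replicate 2, whereas Hoxa13 of the same cluster had 1.43%.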
